A study of Homo sapiens with 8 samples.

Results

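The insulin-like growth factor (IGF) binding proteins IGFBP2, IGFBP3, IGFBP4, IGFBP5, IGFBP6 and IGFBP7 and the receptors IGF1R and IGF2R were followed in breast cancer cells on a soft or a stiff substrate. They are 8 of the 19775 genes named on the array. They were taken by gene name, and every probe set whose only platform symbol was one of these 8 was used, 22 of 54613 probe sets in all. A probe set is the group of short probes on the array that reads 1 transcript region. All arrays carried RNA of MDA-MB-231, an established human triple-negative breast cancer line with mesenchymal features, grown in DMEM/F12 medium with serum. The soft group was 4 cultures kept for 2 days on a soft substrate, and the stiff group was 4 cultures kept for 2 days on a stiff one. Replicates were lettered A to D, with 1 Affymetrix array each. The labels give no elastic modulus for the substrates and do not say what separates one biological replicate from another; p-values cover only the scatter among these arrays, which may be technical. A single cell line was used.

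IGF1 and IGF2 are secreted growth factors that act through the tyrosine kinase receptor IGF1R. The IGF binding proteins are secreted too, hold the IGFs outside the cell with high affinity and so set how much ligand can reach the receptor; IGFBP7 is a relative with low affinity. IGF2R, also known as the cation-independent mannose 6-phosphate receptor, has no kinase: it takes up IGF2 for degradation and carries newly made lysosomal enzymes to the lysosome.

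The promoters of IGFBP4 and IGFBP6, the 2 binding proteins whose signal was higher on soft, are shown with that of IGFBP3, whose signal was not called different. Each window runs from 250 bases before to 50 bases after the annotated RefSeq start in GRCh38.p14, 5′ to 3′ on the gene's strand; chr17:40443200-40443499 on the plus strand for IGFBP4, chr12:53097417-53097716 on the plus strand for IGFBP6, and chr7:45921223-45921522 on the minus strand for IGFBP3. Capitals mark matches on either strand to the GC box GGGCGG, the TATA box TATAAA, the TEAD motif GGAATG and the FOXO motif GTAAACA.
IGFBP4: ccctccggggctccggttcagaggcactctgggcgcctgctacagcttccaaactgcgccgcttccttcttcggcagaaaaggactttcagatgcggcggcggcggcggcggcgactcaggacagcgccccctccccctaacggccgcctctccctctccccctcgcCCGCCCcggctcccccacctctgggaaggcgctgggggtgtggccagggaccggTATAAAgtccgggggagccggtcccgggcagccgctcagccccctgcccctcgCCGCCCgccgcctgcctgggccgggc
IGFBP6: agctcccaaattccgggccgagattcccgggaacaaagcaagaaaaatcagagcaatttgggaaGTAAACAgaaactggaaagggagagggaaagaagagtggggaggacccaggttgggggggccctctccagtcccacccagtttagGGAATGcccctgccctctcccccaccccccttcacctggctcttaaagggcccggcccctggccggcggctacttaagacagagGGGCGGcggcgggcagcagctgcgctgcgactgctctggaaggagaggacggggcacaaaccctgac
IGFBP3: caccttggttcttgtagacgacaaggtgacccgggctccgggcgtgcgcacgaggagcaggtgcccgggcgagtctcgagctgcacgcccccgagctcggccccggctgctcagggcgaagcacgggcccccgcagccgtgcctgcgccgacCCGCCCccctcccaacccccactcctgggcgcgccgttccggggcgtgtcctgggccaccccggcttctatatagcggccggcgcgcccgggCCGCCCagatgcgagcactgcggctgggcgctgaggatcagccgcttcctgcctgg

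RefSeq gave a window for 7 of the 8 genes, with none for IGFBP7. IGFBP4 held 2 GC boxes and a TATA box, found in none of the other member windows, 29 bases before the start. TATAAA was present in 12.0% of 27305 promoter windows of the same length. IGFBP6 held 1 GC box, 1 TEAD motif and 1 FOXO motif, which were present in 44.6%, 14% and 3.4% of all windows. The TEAD motif was also found in the IGFBP5 window. IGFBP3 held 2 GC boxes and none of the other 3 motifs. No member window held the AP-1 motif TGANTCA (7.8% of all windows) or the CCAAT box (35.7%). The GC content of the windows was 74.0% for IGFBP4, 61.7% for IGFBP6 and 74.7% for IGFBP3, against a median of 58.3% over all windows. The IGFBP4 and IGFBP6 windows therefore shared the GC box, which IGFBP3 held as well, and no other motif searched.

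Pairwise correlations between arrays lay between 0.9932 and 0.9982, and no 2 arrays were identical. Soft and stiff lay apart on the first principal component (40.4% of the variance), and on the second (16.4%) the stiff A and B arrays lay opposite stiff C and D. A background level of 6.16 was set, below which 95% of 20 probe sets of 13 genes taken as silent in this line had their mean. A probe set counts as above this level where its higher group mean is. By that rule 2 of the 13 silent genes were above it at their brightest probe set. Of 8 markers of the line, 7 (all but SPARC) lay above it. Fibroblast, endothelial and leukocyte markers were above it for 2 of 8, 2 of 8 and 2 of 7 genes, and PTPRC, VWF, CDH5, DCN and COL1A2 were not above it. Of the endothelial list PECAM1 was higher on soft (difference 0.49, limma adjusted p = 0.00211), and no fibroblast or leukocyte marker was called. Of the line's own markers S100A4 was higher by 0.525 and AXL fell by 0.2275 (limma adjusted p = 0.00708 and 0.0318). Of 12 luminal epithelial markers 3 were higher on soft (TFF1, AGR2 and KRT19) and none lower. The list averaged 8.50 to 8.57 on soft arrays and 8.22 to 8.36 on stiff arrays. It was drawn up as low in this line, yet 9 of its 12 genes were above background, and PGR, CDH1 and FOXA1 were not. The part of these marker differences in the results below was not tested. In RNA from whole cultures, fewer cells of a kind and less RNA per cell cannot be told apart.

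In all, 4 member probe sets were higher on soft and none lower: those of IGFBP4 and IGFBP6, 1 of the 5 of IGF1R and 1 of the 3 of IGF2R. A probe set counts as called where limma's p, Benjamini-Hochberg adjusted over all 54613 probe sets, was under 0.05. The 4 are 18.2% of the 22 member probe sets, where 9.27% of all probe sets were called in either direction, 4.64% higher on soft and 4.63% lower. The groups did not overlap for the same 4 probe sets, which is 18.2% of the members against 16.6% of all probe sets, so the share without overlap lay near the background. The median difference of the member probe sets was 0.07 on the log2 scale, against 0.01 over all probe sets. Of the 22, 12 lay above the background level in at least 1 group and 10 did not, and none of the 10 was called. The 4 called probe sets are thus among these 12. Of all probe sets above background 17.0% were called, 8.32% were called higher, and 29.5% had groups that did not overlap. Since the filter takes the higher group mean, these counts describe the members and are not support. Each gene is read first by its lead probe set, the one with the highest mean over the 8 arrays. At these, 2 of 8 genes were called (25.0%), against 10.3% of all genes. The lead lay above background for 7 of the 8, against 11640 of all 19775 genes, so these shares are not of like sets. Among the 7, that of IGFBP5 barely passed, with a soft mean of 6.165 against a level of 6.163.

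**Figure D1:**
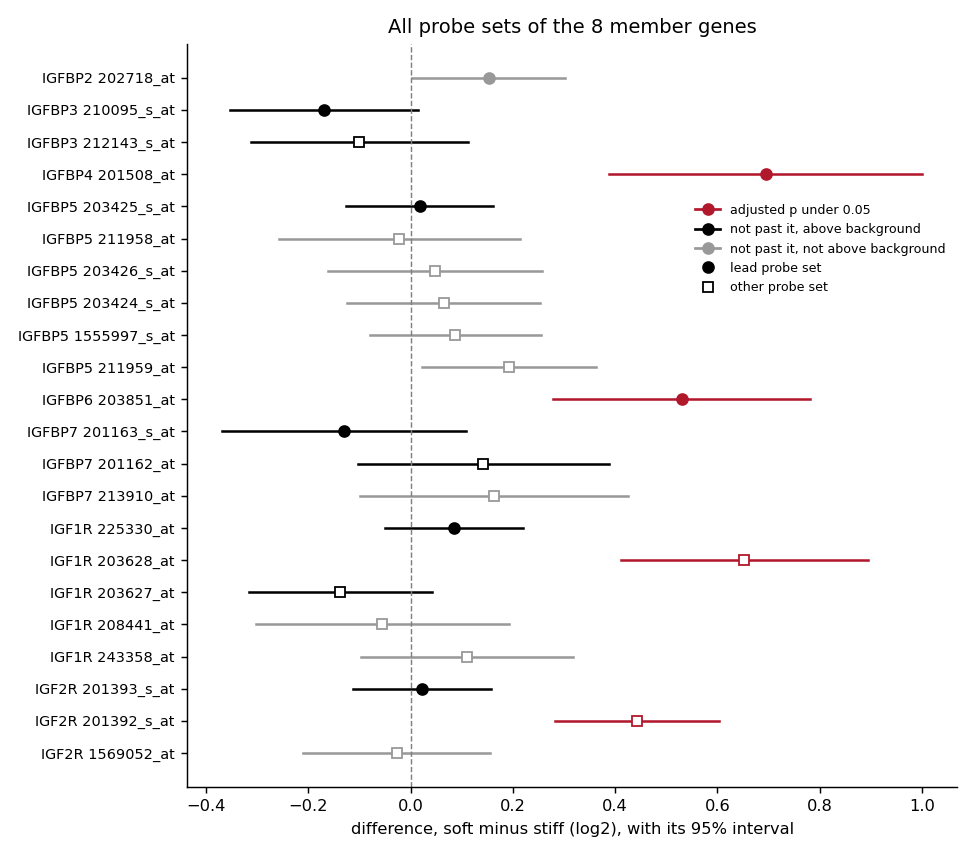
Difference between soft and stiff (log2, x axis) for each of the 22 member probe sets (rows), with its 95% interval from limma. Filled circles are lead probe sets and open squares the others; red marks the 4 with adjusted p under 0.05, black the others above background and grey those not above it. The 4 red intervals lie to the right of 0.

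IGFBP4 binds both IGFs and is known mainly as an inhibitor of their action, relieved when the protease PAPPA cleaves it. Its single probe set, 201508_at, read 11.63, 11.39, 11.43 and 11.71 (log2 RMA values) on soft A to D, and 11.20, 10.99, 10.48 and 10.71 on stiff A to D. Every soft array was above every stiff array, by at least 0.19, and stiff A and B were higher than stiff C and D. The means were 11.54 ± 0.154 on soft and 10.845 ± 0.315 on stiff (SD, n = 4 each). The difference of 0.695 (SE 0.139, 95% interval 0.389 to 1.001), a 1.62-fold level, passed the threshold (limma adjusted p = 0.0116).

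IGFBP6, which prefers IGF2 over IGF1, was also higher on every soft array than on any stiff array. Its single probe set, 203851_at, read 9.70, 9.47, 9.50 and 9.74 on soft A to D, and 9.23, 9.28, 8.75 and 9.03 on stiff A to D. The groups did not overlap, again with a gap of 0.19 between the lowest soft and the highest stiff array. The means were 9.60 ± 0.137 on soft and 9.07 ± 0.241 on stiff (SD, n = 4 each), a difference of 0.53 (SE 0.115, 95% interval 0.278 to 0.782) or 1.44-fold (limma adjusted p = 0.0161).

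**Figure D2:**
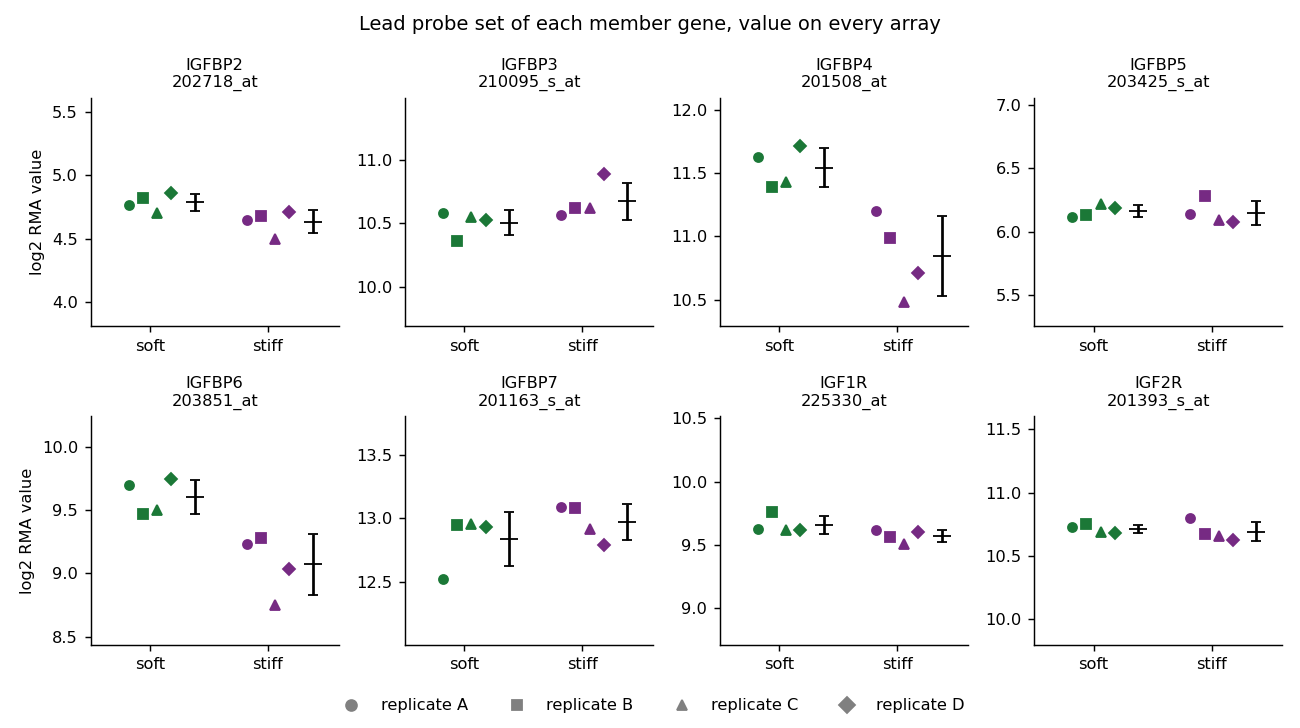
Log2 RMA value (y axis, 1.8 units in each panel) of the lead probe set of each member gene on the 4 soft and the 4 stiff arrays (x axis). Symbols give the replicate letter, and the bars the mean ± SD. Soft and stiff arrays are apart for IGFBP4 and IGFBP6 and overlap for the other 6 genes.

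IGFBP3, the main IGF carrier of human serum and a known p53 target gene, was not called at either of its probe sets. Its lead probe set 210095_s_at read 10.58, 10.36, 10.55 and 10.53 on soft A to D, and 10.57, 10.62, 10.62 and 10.89 on stiff A to D. The groups overlapped, with stiff D the highest array. The difference was -0.17 (SE 0.0835, 95% interval -0.354 to 0.0136, limma adjusted p = 0.256). It was -0.098 without stiff D (limma adjusted p = 0.532). At the other probe set, 212143_s_at, soft arrays read 8.38 to 8.61 and stiff arrays 8.37 to 8.83. That difference was -0.10 (SE 0.0964, limma adjusted p = 0.602), and lay between -0.177 and -0.024 with single arrays left out, at -0.177 without stiff A, -0.059 without soft A and -0.024 without stiff D.

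IGFBP7, a secreted matrix-associated protein, gave differences of opposite sign at its pair of bright probe sets. The lead, 201163_s_at, read 12.52, 12.95, 12.96 and 12.93 on soft A to D, and 13.09, 13.08, 12.92 and 12.79 on stiff A to D. The other, 201162_at, read 13.03, 12.95, 12.95 and 12.89 on soft A to D, and 13.01, 13.06, 12.53 and 12.65 on stiff A to D. Soft A stood apart at the lead and stiff C and D were low at the other. The differences were -0.13 (SE 0.108, limma adjusted p = 0.536) and 0.14 (SE 0.112, limma adjusted p = 0.508). With only stiff C and D as the stiff group the value at 201162_at was 0.365 and passed the threshold (limma adjusted p = 0.0415); with only stiff A and B it was -0.08. The dim probe set 213910_at differed by 0.16 (limma adjusted p = 0.475).

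IGFBP2 and IGFBP5 read at or below the background level. IGFBP2, which many carcinomas secrete, had 4.79 ± 0.069 on soft and 4.635 ± 0.093 on stiff at its only probe set (SD, n = 4 each). The difference of 0.15 had an unadjusted p of 0.0464 and did not pass the threshold (limma adjusted p = 0.207). IGFBP5, a matrix-binding member of the family, has 6 probe sets, and their values over all arrays ran from 2.61 to 6.28. Only its lead, 203425_s_at, had a group mean above background, at 6.165 on soft and 6.1475 on stiff. The 6 differences ran from -0.02 to 0.19, with limma adjusted p from 0.16 to 0.932.

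Whether the binding proteins changed by unequal amounts was tested on the within-array log2 difference between lead probe sets, for the 4 binding proteins with a mean level over 7 (6 pairs). IGFBP4 less IGFBP3 was 1.035 ± 0.123 on soft and 0.17 ± 0.396 on stiff (SD, n = 4 each), a shift of 0.865 without overlap of the groups. IGFBP6 less IGFBP3 shifted by 0.70, IGFBP4 less IGFBP7 by 0.825 and IGFBP6 less IGFBP7 by 0.66, also without overlap. Each of these 4 shifts had the smallest p that an exact two-sided permutation test of 4 arrays against 4 allows (0.0286, adjusted over the 6 pairs 0.0429). At this floor the adjusted value depends only on how many pairs reach it. These pairs set the called genes against uncalled ones, on the same arrays as the calls. They share genes and arrays, so they are not 4 separate results. IGFBP4 less IGFBP6 shifted by 0.165 (exact permutation p = 0.143, adjusted 0.171) and IGFBP7 less IGFBP3 by 0.04 (exact permutation p = 0.771). With the other bright probe set of IGFBP7 the shifts were 0.5525 for IGFBP4 and 0.3875 for IGFBP6, and with that of IGFBP3 they were 0.795 and 0.63. Of these 4, IGFBP4 less IGFBP3 had overlapping groups (exact permutation p = 0.0571) and the others did not overlap. At the lead probe sets the IGFBP4 and IGFBP6 signals were higher on soft relative to those of IGFBP3 and IGFBP7. This restates the calls and adds no support to them. A difference between IGFBP4 and IGFBP6 was not detected with 4 arrays a group.

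The receptors differed by probe set. IGF1R, the signalling receptor for both IGFs, has 3 probe sets above background. Its lead, 225330_at, read 9.63, 9.76, 9.62 and 9.62 on soft A to D, and 9.62, 9.56, 9.51 and 9.60 on stiff A to D. These overlapped, with a difference of 0.085 (SE 0.0614, 95% interval -0.05 to 0.22, limma adjusted p = 0.466). Probe set 203628_at read 7.72, 7.68, 7.66 and 8.17 on soft A to D, and 7.22, 7.24, 7.02 and 7.14 on stiff A to D. Here every soft array was above every stiff one by at least 0.42, and soft D was the highest. The means were 7.81 ± 0.243 on soft and 7.155 ± 0.1 on stiff (SD, n = 4 each), a difference of 0.65 (SE 0.11, 95% interval 0.411 to 0.894) or 1.57-fold (limma adjusted p = 0.0051). Without soft D it was 0.532 and still past the threshold (limma adjusted p = 0.00476). Another probe set, 203627_at, ran the other way without being called: 7.17 to 7.46 on soft and 7.36 to 7.56 on stiff, a difference of -0.14 (SE 0.0814, limma adjusted p = 0.357). The dim IGF1R probe sets 208441_at and 243358_at differed by -0.055 and 0.11 and were not called.

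IGF2R, the receptor that clears IGF2, also had a called probe set beside a lead that was not. The lead, 201393_s_at, read 10.73, 10.75, 10.69 and 10.68 on soft A to D, and 10.80, 10.67, 10.66 and 10.63 on stiff A to D. The difference was 0.02 (SE 0.0611, 95% interval -0.112 to 0.157, limma adjusted p = 0.874). Probe set 201392_s_at read 9.95, 9.87, 9.91 and 10.01 on soft A to D, and 9.65, 9.51, 9.36 and 9.45 on stiff A to D. These groups did not overlap, with means of 9.935 ± 0.06 on soft and 9.49 ± 0.122 on stiff (SD, n = 4 each). The difference was 0.44 (SE 0.0728, 95% interval 0.282 to 0.602) or 1.36-fold (limma adjusted p = 0.00447). The dim probe set 1569052_at differed by -0.03 (limma adjusted p = 0.888).

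The disagreement between probe sets of a gene was tested within arrays, each bright probe set less the lead of its gene, in 5 pairs. For IGF1R, 203628_at less the lead was -1.85 ± 0.276 on soft and -2.42 ± 0.075 on stiff (SD, n = 4 each), a shift of 0.57 without overlap. For IGF2R, 201392_s_at less the lead was -0.78 ± 0.086 on soft and -1.20 ± 0.069 on stiff (SD, n = 4 each), a shift of 0.42 without overlap. Both had the smallest p possible (exact permutation p = 0.0286), which over the 5 pairs adjusts to 0.0714 and does not pass. With only these pairs at that floor, the adjusted value could not be lower whatever the size of the shifts. It therefore cannot decide whether the probe sets disagree. The shift was -0.22 for 203627_at of IGF1R and 0.27 for IGFBP7 (exact permutation p = 0.0571 each), and 0.07 for IGFBP3 (exact permutation p = 0.486). Of the 4 member genes with an uncalled lead and another probe set above background, 2 had such a probe set called. Over the whole array the share was 19.5% of 4636 genes. The files do not say which transcript forms each probe set reads.

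**Figure D3:**
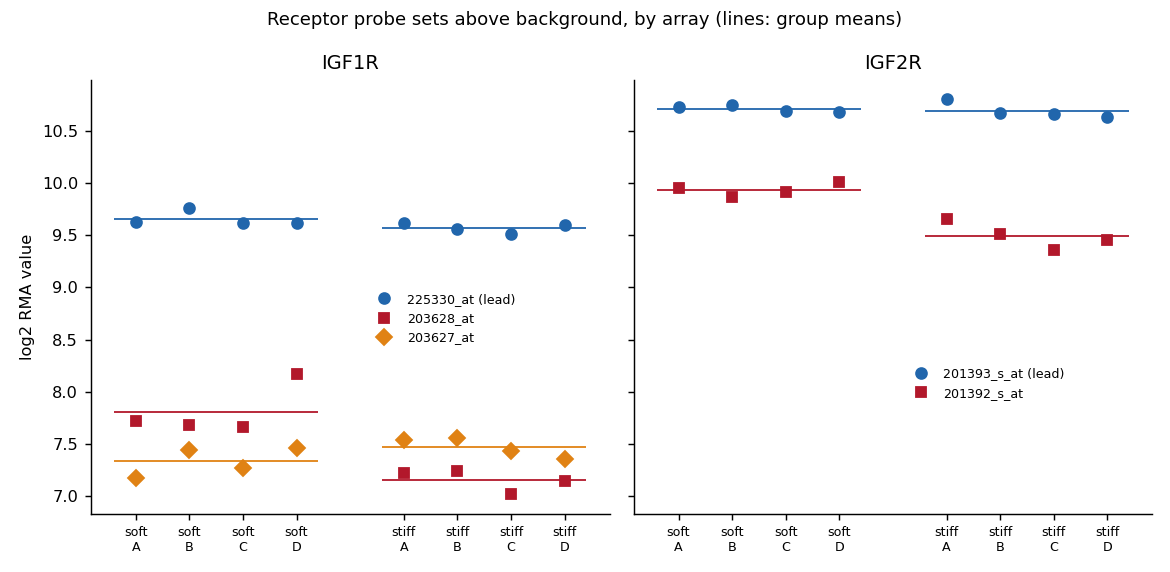
Log2 RMA value (y axis) of the IGF1R and IGF2R probe sets above background on each soft and each stiff array (x axis), with horizontal lines at the group means. The lead probe sets (blue) lie level across the groups, and 1 probe set of each receptor (red squares) lies higher on all 4 soft arrays than on any stiff array.

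At all 4 called probe sets soft D was the highest array and stiff C the lowest. At each of them stiff A and B were both above stiff C and D. For IGFBP4 the first pair averaged 11.095 and the second 10.595, for IGFBP6 9.255 and 8.89, for IGF1R 7.23 and 7.08, and for IGF2R 9.58 and 9.405. Stiff A and B both lay above stiff C and D at uncalled member probe sets too. Among these were both bright ones of IGFBP7, 203627_at of IGF1R and the lead of IGF2R. This order is thus not particular to the called probe sets. It was absent at both IGFBP3 probe sets and at the IGF1R lead, and its share over all probe sets was not counted. With only stiff C and D as the stiff group, soft cells differed by 0.945 for IGFBP4, 0.713 for IGFBP6, 0.728 for IGF1R at 203628_at and 0.53 for IGF2R at 201392_s_at, all past the threshold (limma adjusted p from 0.00583 to 0.0293). With only stiff A and B they differed by 0.445, 0.347, 0.578 and 0.355. Of these only that of IGF2R passed (limma adjusted p = 0.0439), and those of IGFBP4, IGFBP6 and IGF1R had limma adjusted p of 0.0614, 0.0888 and 0.0539. What sets these stiff pairs apart is not in the labels, and its part in the results was not tested.

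**Figure D4:**
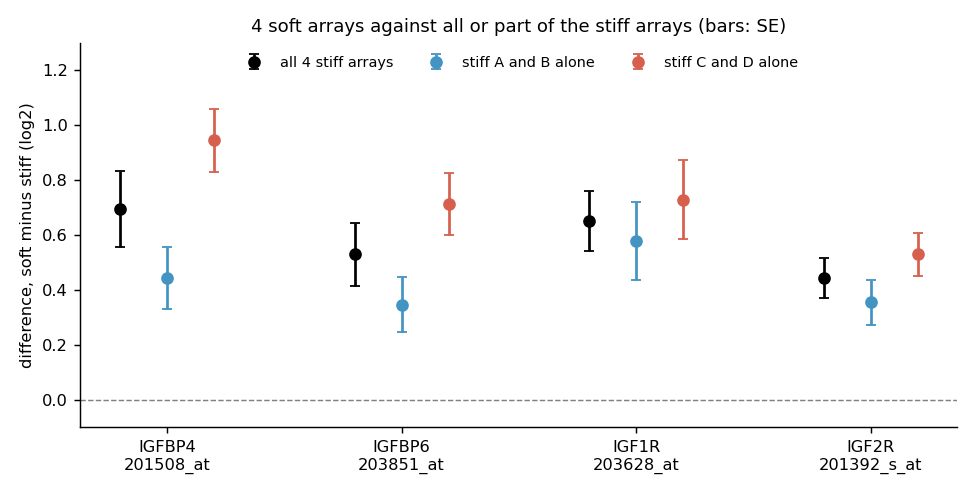
Difference between soft and stiff (log2, y axis) for the 4 called probe sets (x axis), with all 4 stiff arrays (black), stiff A and B alone (blue) or stiff C and D alone (red); bars are the SE. All 12 values lie above 0, and for each probe set the value against stiff C and D is the highest of the 3.

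Genes with the pattern most like IGFBP4 and IGFBP6 over the 8 arrays were sought among 11639 other genes above background, by Pearson's r of lead probe sets. SLC27A1, a fatty acid transport protein, and RHOJ, a small GTPase of the CDC42 branch, were nearest to IGFBP4 (r = 0.993 for both). SLC27A1 differed by 0.30 (SE 0.0784, limma adjusted p = 0.0363) and RHOJ by 0.40 (SE 0.0968, limma adjusted p = 0.0271). TCEA3, a transcription elongation factor, and USP9X, a deubiquitinase, were nearest to IGFBP6 (r = 0.992 and 0.989). TCEA3 differed by 0.465 (SE 0.0913, limma adjusted p = 0.0105). USP9X differed by 0.095 and was not called (limma adjusted p = 0.353). These coefficients are descriptions over 8 arrays that fall into the 2 groups, and the highest of many.

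Other genes of the pathway were read at their lead probe sets in 11 lists with 120 genes, of which 106 had a probe set of their own. Of the 106, 9 were higher on soft, 6 lower and 91 not called, with a median difference of 0.02. Among all genes 4.39% were called higher and 5.93% lower, with a median difference of 0.007. Of the 106, 90 lay above background, against 11640 of all 19775 genes, so the shares are not of like sets.

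Ligands and receptors beside the members did not pass at their lead probe sets. IGF2 had no probe set of its own here. IGF1 read 6.17 ± 0.097 on soft and 6.15 ± 0.158 on stiff (SD, n = 4 each), at the background level. INSR, the insulin receptor, which can pair with IGF1R, differed by 0.07 at its lead (limma adjusted p = 0.616). Like the IGF receptors it had another bright probe set that was called, 226216_at, at 8.715 on soft and 8.24 on stiff (difference 0.47, SE 0.0655, limma adjusted p = 0.00189), while 226450_at and 226212_s_at differed by 0.15 and -0.05 (limma adjusted p = 0.176 and 0.766).

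Of 13 measured proteases and inhibitors linked to IGFBP cleavage 4 were higher on soft and none lower. The protease inhibitor TIMP1, the lysosomal proteases CTSD and CTSB (CTSB named after its value was seen) and the tissue plasminogen activator PLAT made up the 4. PLAT read 11.75 to 11.93 on soft and 10.97 to 11.36 on stiff arrays, a difference of 0.66 (SE 0.0842, limma adjusted p = 0.00123). TIMP1 differed by 0.86, CTSD by 0.72 and CTSB by 0.43 (limma adjusted p = 0.000623, 0.00438 and 0.00534). With only stiff A and B as the stiff group the CTSB lead was at 0.372 and missed the threshold (limma adjusted p = 0.0506). Of the other 4 CTSB probe sets above background 3 were called higher, by 0.72, 0.42 and 0.3875. The uncalled 213275_x_at differed by 0.1575 (limma adjusted p = 0.188). PAPPA, the pregnancy-associated protease that cleaves IGFBP4, read 7.58 to 8.11 on soft and 7.67 to 8.20 on stiff (difference -0.16, SE 0.13, limma adjusted p = 0.534), and none of its other 5 probe sets above background was called. STC2, an inhibitor of PAPPA, was below background at 5.385 on soft and 5.345 on stiff (limma adjusted p = 0.824).

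Among 13 other proteins of the IGF complex or with an IGFBP-like domain, none was higher and 3 were lower. The matrix-associated CCN2 and CCN1, which carry an IGFBP-like domain, fell by 0.575 and 0.425 on the log2 scale (limma adjusted p = 0.00125 and 0.00575), and a second CCN1 probe set fell by 0.42. IGFBPL1, an IGFBP-like secreted protein, read 8.14 to 8.50 on soft and 8.67 to 8.74 on stiff, and fell by 0.41 (SE 0.0875, limma adjusted p = 0.0153). It missed the threshold against either stiff pair alone (limma adjusted p = 0.102 and 0.0836) with differences of -0.395 and -0.425.

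Of 14 receptor adaptors 1 was higher and 2 were lower. GRB10, which binds IGF1R and the insulin receptor and restrains their signal, was 10.545 ± 0.117 on soft and 10.0875 ± 0.167 on stiff (SD, n = 4 each), a rise of 0.46 (SE 0.0917, limma adjusted p = 0.0116). Its other 3 probe sets were called higher as well, by 0.40, 0.45 and 0.87. With only stiff C and D the lead was at 0.32 and missed the threshold (limma adjusted p = 0.0995). SOCS2, a feedback inhibitor of cytokine and growth hormone signalling, fell by 0.61 (SE 0.0831, limma adjusted p = 0.00174), and by 0.655 at its other probe set above background. The adaptor GRB14 fell by 0.51 with both groups below background. IRS1 and IRS2, the main docking proteins of the receptor, differed by -0.11 and 0.05 (limma adjusted p = 0.438 and 0.68), and no other probe set of theirs above background was called.

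Downstream, 1 of 16 genes of the PI3K, AKT and mTOR branch was called, the mTORC1 inhibitor TSC2 at 0.40 (SE 0.0778, limma adjusted p = 0.00981). The mean of its probe sets differed by 0.219 (limma adjusted p = 0.129). Its other probe set, without a shared-probe suffix and not above background, differed by 0.035 (limma adjusted p = 0.907), and neither passed. Its lead also missed the threshold against either stiff pair by itself, at 0.395 for A and B (limma adjusted p = 0.0707) and 0.41 for C and D (limma adjusted p = 0.0685). None of the 4 measured genes of the RAS and ERK branch was called. Of 10 FOXO factors and target genes BCL6 was called at its lead, at 0.24 (limma adjusted p = 0.0366). The lead lost its call in 11 of 21 alternative settings, among them without soft A, B, C or D or stiff A, B or C. Another BCL6 probe set above background, 215990_s_at, was called higher, by 0.5075 (limma adjusted p = 0.00307). A further one, 228758_at, differed by 0.18 and was not called (limma adjusted p = 0.334). The lysosomal sorting genes that work with IGF2R had no call among 14, with a median difference of 0.085. IGF2BP3, which binds the IGF2 mRNA, was 11.36 ± 0.036 on soft and 10.9025 ± 0.095 on stiff (SD, n = 4 each), a rise of 0.46 (SE 0.065, limma adjusted p = 0.00215). None of its other 3 probe sets above background was called, and they differed by 0.33, 0.15 and, at the dimmest, 1569033_at, by -0.30. The mean of all IGF2BP3 probe sets differed by 0.16 and did not pass (limma adjusted p = 0.152). Of 15 surface and matrix partners TMEM219, a receptor for IGFBP3, rose by 0.28 (limma adjusted p = 0.0126). TMEM219 missed the threshold with only stiff A and B (0.292, limma adjusted p = 0.0648) or only stiff C and D (0.268, limma adjusted p = 0.0813), and its other probe set above background, 228513_at, differed by 0.1275 without a call (limma adjusted p = 0.367). The proteoglycan SDC1 fell by 0.3475 and by 0.34 at its other probe set (limma adjusted p = 0.0161 and 0.0229). The lead probe set of SDC1 missed the threshold with only stiff C and D (difference -0.255, limma adjusted p = 0.137) and without stiff B (-0.323, limma adjusted p = 0.0541).

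**Figure D5:**
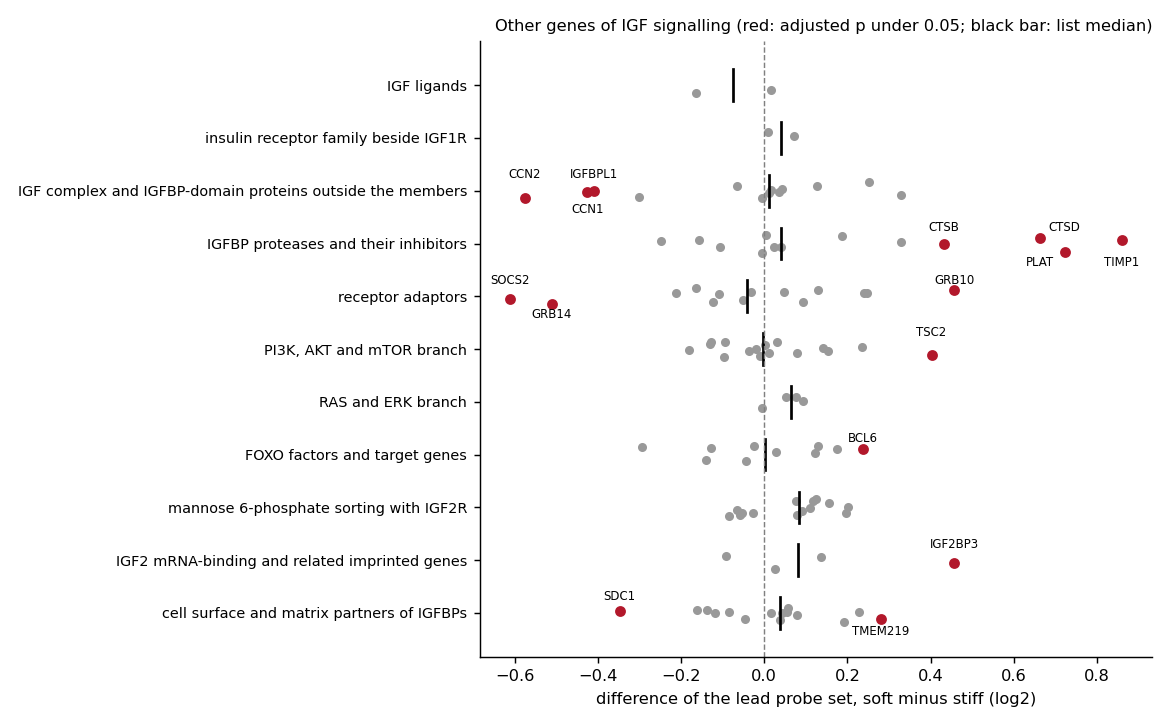
Difference between soft and stiff (log2, x axis) at the lead probe set of each measured gene in the 11 lists (rows). Red points have adjusted p under 0.05 and are named, grey points do not, and black bars are list medians. The called genes lie on both sides of 0, 9 higher and 6 lower.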

How the data were processed

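The deposited values are log2 RMA summaries by the authors, with a single value for each probe set on each array. The method name RMA comes per the submitters' processing notes; for its version, "not given in the sources used here" applies. The log2 scale was read from the values. Because RMA makes the arrays' distributions of probe intensities equal before summarizing, a change shared by every gene cannot be seen, and differences of dim probe sets are compressed. Of 54675 probe sets, 62 manufacturer's controls were left out. Platform annotation, checked by gene ID against RefSeq, gave 1 symbol to 41091 probe sets, several to 1801 and none to 11721; those with several were not used. Scanner files were not used here.

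Soft and stiff were compared with limma 3.58.1 in R 4.3.3 (lmFit and eBayes on all 8 arrays, no covariates, all 54613 probe sets, two-sided); differences are soft minus stiff. Exact permutation tests used scipy 1.17.1. The number of arrays limits the precision. On simulated data for soft against stiff over 54613 probe sets, 49% of 100 changes of 0.5 and 99% of 100 changes of 1 were recovered, with 7 false calls. Only these probe sets changed there, where 5061 were called in the data, and noise was drawn separately for each probe set. The rates may therefore not carry over to these arrays. MBP, listed among the silent genes, was left out of the background level after its values were seen (10.18 with it).

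The members, lists and tests were chosen with earlier results of these data known. Named beside the members were, per list, up to 3 called genes in each direction with the largest differences, 7 genes whatever their result, of which IGF2 had no probe set of its own, and the 2 genes most like each called lead. Alternatives were a replicate block, 3 scalings, 2 level filters, a trended robust variance, array weights, a stricter threshold, gene means, lead probe sets without shared-probe suffixes, part of the stiff arrays and leaving out each array. Replicate letters were not taken as pairs.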

Additional observations from a re-analysis of the deposited data

Results flagged for a closer look

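In 94 groups of 4 arrays, 7 had 1 array far from the other 3; chance gives about 1 in 20. Soft D read 8.17 for IGF1R at 203628_at, against 7.66 to 7.72 on the other soft arrays, and soft B read 9.76 at the lead 225330_at, against 9.62 to 9.63. Soft C read 4.34 for IGF1R at the dim 243358_at, against 4.57 to 4.61. Soft A read 12.52 for IGFBP7 at 201163_s_at, against 12.93 to 12.96. Stiff D read 10.89 for IGFBP3 at 210095_s_at, against 10.57 to 10.62. Stiff A read 8.67 for IGFBPL1, against 8.73 to 8.74, and stiff C read 5.47 for STC2, against 5.29 to 5.32.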

How the results depend on the processing

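The member counts stayed at 4 probe sets and 2 genes under the replicate block, each of the 3 scalings, both filters on dim probe sets, the other variance model, array weights and leaving out each array, and 2 genes were also called with gene means or lead probe sets without shared-probe suffixes. At adjusted p under 0.01, 2 member probe sets were called (1663 of all), 10 pathway genes and, by limma, 0 member genes (3 at an unadjusted p under 0.05); both IGFBP4 and IGFBP6 were lost, in gene counts added after seeing the data. Against stiff A and B alone, 1 member probe set (2659 of all) and 0 member genes were called by limma, with IGFBP4 at 0.445, IGFBP6 at 0.347 and IGF1R 203628_at at 0.578; against stiff C and D alone 2188 of all and 9 pathway genes were. At an unadjusted p under 0.05, 2 member genes (IGFBP4 and IGFBP6) passed against stiff A and B; no other tool was run there. Above the background level with MBP kept, a setting added after seeing the data, 1 member probe set, 1 member gene and 2173 of all were called, since fewer probe sets were tested. With each array left out, 2851 to 5080 of all probe sets were called, the fewest without stiff B, against 3278 without soft D and 3360 without stiff D. Pathway genes called were 24 of 90 above background and 23 of 92 above the median level. With the trended, robust variance model they were 23 of 106, against 15 of 106 in the main setting. Calls over all probe sets rose too, to 6872 of 25375, 6700 of 27296 and 6747 of 54613, against 5061 of 54613. The cause of these changes was not tested.

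The replicate block called 4 member probe sets, 2 member genes, 15 pathway genes and 3937 of all (5061 without it). Deviations of same-lettered arrays correlated at 0.122, -0.118, 0.052 and -0.045, and not every array was nearest to its own letter, so the letters were not taken as pairs.

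Of the called genes named, IGF2BP3 had the opposite sign without suffixed probe sets, at -0.297 (limma adjusted p = 0.0722). That setting reads another probe set, 1569033_at, which lay near background at 6.085 on soft and 6.3825 on stiff. Among the uncalled values named, several turned sign. Against stiff A and B alone these were IGFBP3 212143_s_at (0.052), IGFBP5 203425_s_at (-0.045) and 203426_s_at (-0.033), IGFBP7 201162_at (-0.08), IGF1R 243358_at (-0.03), IGF2R 201393_s_at (-0.022) and 1569052_at (0.005), and IGF1 (-0.033). Against stiff C and D alone they were IGFBP5 211958_at (0.003) and 203424_s_at (-0.033), IGF1R 208441_at (0.133) and STC2 (-0.01). With median centring IGFBP5 203425_s_at and IGF1 were each at -0.003. Without suffixed probe sets, where another probe set of the gene was read, IGFBP5 was at -0.022, IGFBP7 at 0.142, IGF2R at -0.028 and PAPPA at 0.035. With gene means IGFBP7 and PAPPA were each at 0.058 and IRS1 at 0.043. With arrays left out, IGFBP5 ran from -0.005 to 0.062 (203425_s_at), -0.105 to 0.036 (211958_at), -0.013 to 0.13 (203426_s_at) and -0.013 to 0.121 (203424_s_at), IGF1R 208441_at from -0.146 to 0.014, IGF2R 1569052_at from -0.099 to 0.028, STC2 from -0.022 to 0.085 and IGF1 from -0.059 to 0.063.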
